A study of Mus musculus with 78 samples.

Results

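The genes described here are 10 members of glycolysis, the glucose transporter Slc2a1 and the enzymes Hk1, Hk2, Pfkp, Pfkl, Pfkfb3, Aldoa, Pgk1, Pkm and Ldha, followed in the carotid endothelium of mice after partial ligation of one artery. They were taken by name from a list, each read from the probe set annotated to that symbol alone that had the highest mean over all arrays, and make up 10 of the 17097 genes that a probe set names and 10 of the 11344 that passed the filter on low values. All 10 passed it: Hk2 was above the array median on 54 of 78 arrays, Pfkl on 77 and the other 8 members on 78. In all 39 mice the left common carotid artery (LCA) was partially ligated, and the right one (RCA) of the same mouse was the control. Mice received atorvastatin at 10 mg per kg body weight per day, a statin that blocks cholesterol synthesis, or vehicle, by mouth each day from 2 days before surgery. RNA was flushed from the inside of each artery with Qiazol, which enriches endothelial RNA, at 12 h, 24 h, 48 h or 2 weeks, and 1 Affymetrix expression array was hybridised for each artery. The groups were LCA and RCA of atorvastatin mice (5 mice at 12 h, 24 h and 2 weeks, and 4 at 48 h) and LCA and RCA of vehicle mice (5 at each time). The labels name no strain, genotype, sex or age. Within each treatment the mice are numbered again at each time, vehicle mice 1 to 5 and atorvastatin mice 6 to 10, and the arteries of a mouse share its number.

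Glycolysis splits glucose into pyruvate in the cytosol, and endothelial cells are known to take much of their ATP from it, even when oxygen is plentiful. Glucose enters through transporters such as GLUT1, hexokinases trap it as a phosphate, phosphofructokinase commits it to the pathway, and the later enzymes harvest ATP and hand pyruvate to lactate dehydrogenase. Partial ligation leaves the left carotid with low and oscillating flow, and steady laminar flow is known, from human endothelial cells, to hold PFKFB3 low through the transcription factor KLF2.

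The 10 genes did not move as a block. Pfkfb3 was higher in the LCA than in the RCA at 12 h and 24 h under both treatments, and neither the difference at 48 h nor that at 2 weeks passed the test. Slc2a1, Hk2, Pgk1, Pkm and Ldha were higher in the LCA at 48 h under both treatments, and Hk2, Pfkp and Pgk1 at 2 weeks. Aldoa was lower in the LCA at 2 weeks, Hk1 was lower at 24 h in vehicle mice, and Pfkl passed in no group. The Aldoa and Hk1 calls, like some others described below, were lost when certain single mice were left out. A second probe set of Hk1 did not pass at 24 h. The mean of the Aldoa probe sets passed at 24 h and not at 2 weeks, in both treatments. Differences are given as LCA minus RCA within a mouse on the log2 scale, where 1 is a 2-fold difference. A gene passed, or was called, when limma's moderated test over 11344 genes gave a Benjamini-Hochberg adjusted p under 0.05. Each SE is that of the limma fit, from 1 estimate of spread shared by all 8 mouse groups. It does not measure the spread of the n mice of its own group, which their printed values show. The number of arrays limits the precision. Nothing in the labels names animals pooled on an array.

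**Figure D1:**
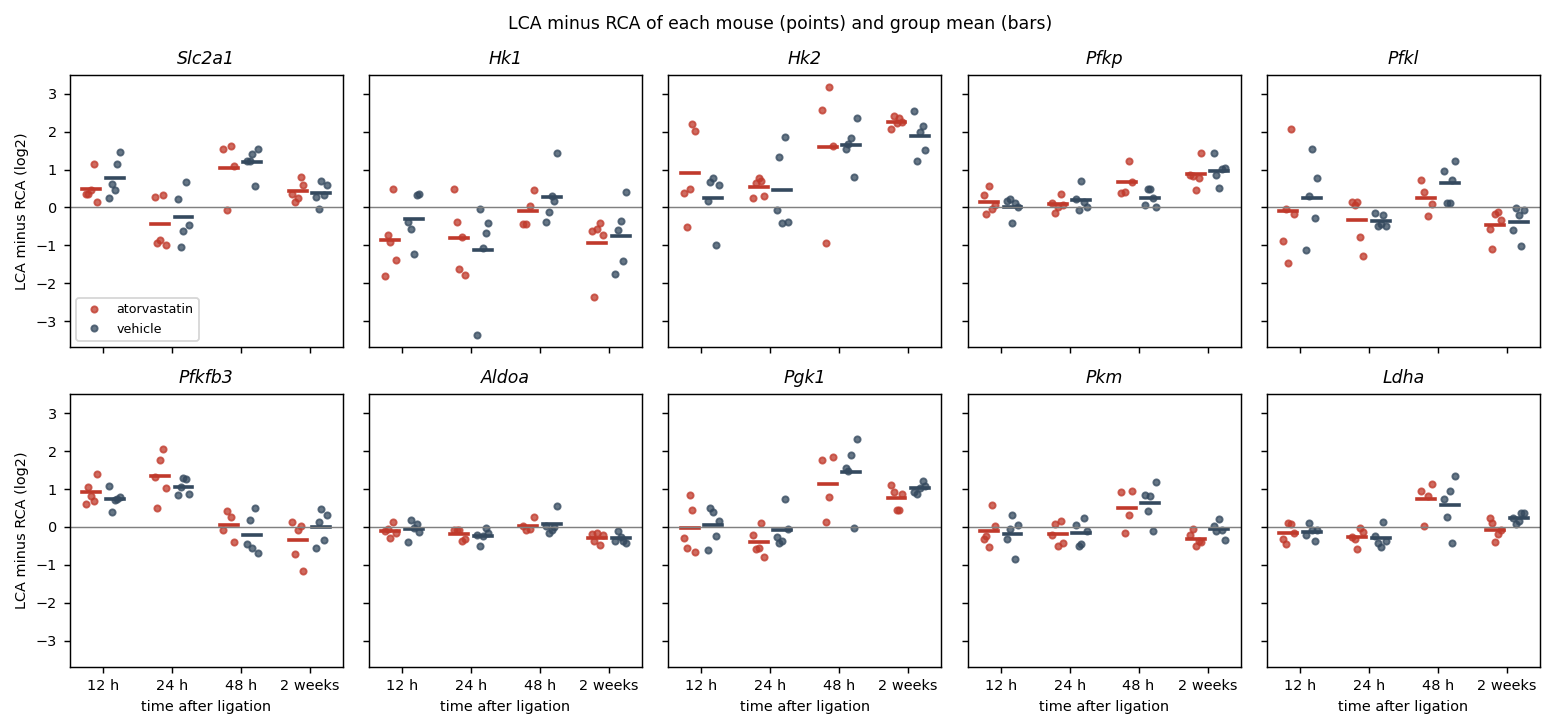
LCA minus RCA on the log2 scale (vertical axis) of every mouse (points) with the group mean (bar), for the 10 genes at 12 h, 24 h, 48 h and 2 weeks (horizontal axis), atorvastatin left and red, vehicle right and dark. Pfkfb3 sits above 0 in every mouse at 12 h and 24 h, while Slc2a1, Hk2, Pgk1, Pkm and Ldha have their high group means at 48 h, Hk2 and Pgk1 also at 2 weeks.

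Counts of members are read against all genes tested. Under atorvastatin 1 member was called at 12 h, 1 at 24 h, 6 at 48 h and 4 at 2 weeks, where 1.68, 13.1, 31.8 and 29.9% of all tested genes were called. In vehicle mice 1, 2, 5 and 4 members were called at those times, where 2.39, 14.3, 36.2 and 27.8% of all genes were. Fitted on the mice of 1 group alone, with fewer degrees of freedom, 0 of these 6 passed with limma at 48 h under atorvastatin and 3 of 5 in vehicle. The median LCA minus RCA of the 10 members was -0.06, -0.23, 0.59 and -0.18 under atorvastatin, against 0.03, -0.19, 0.60 and 0.12 in vehicle mice. That of all tested genes lay between -0.03 and 0.03 in all 8 groups.

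The samples were checked against cell type markers. Of 10 endothelial genes, among them Pecam1, Cdh5 and Vwf, 9 were above the array median on all 78 arrays and Kdr on 54. The log2 of their summed linear level was 13.2 to 14.2 in the LCA and 13.53 to 14.22 in the RCA. Other cells were present too. The macrophage list (6 genes, Cd68, Csf1r, Adgre1, Lyz2, Mpeg1 and C1qb) had 6 of 6 genes higher in the LCA at 48 h and at 2 weeks under both treatments, and all 4 tested neutrophil genes (S100a8, S100a9, Cxcr2 and Csf3r) were higher at 48 h. The summed neutrophil level at 48 h was 8.32 to 12.18 in the LCA and 5.41 to 6.21 in the RCA under atorvastatin, against 5.41 to 12.32 in the LCA and 5.47 to 7.04 in the RCA of vehicle mice. Endothelial genes themselves moved at 48 h, 3 higher and 6 lower of 10 under atorvastatin, and 2 and 5 in vehicle. All 5 smooth muscle genes tested were higher at 2 weeks under both treatments, as were 2 of 4 T cell genes under atorvastatin and 4 of 4 in vehicle. Proliferation genes were higher at 48 h (4 of 9 under atorvastatin, 9 of 9 in vehicle) and at 2 weeks (5 and 7 of 9). As above, 31.8 and 36.2% of all tested genes were called at 48 h, and 29.9 and 27.8% at 2 weeks. Platelet genes averaged higher in the LCA of every mouse at 48 h (by 0.26 to 2.20 under atorvastatin and 0.29 to 1.47 in vehicle). They did so at 2 weeks too (by 0.247 to 0.748 under atorvastatin and 0.235 to 1.684 in vehicle). Adipocyte genes differed by -4.12 to 1.45 and erythroid genes by -2.18 to 1.63 between the arteries of atorvastatin mice at 2 weeks, against -4.07 to 2.60 and -1.61 to 1.02 in vehicle. Summed skeletal muscle genes reached 12.48 in the RCA of atorvastatin mouse 9 at 2 weeks. In such bulk RNA, fewer cells of a type and less RNA per cell cannot be told apart, and the part of these cells in the results below was not tested.

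The promoters of the genes that were higher in the LCA than in the RCA at 48 h under both treatments are shown here. That of Pfkfb3, which was higher at 12 h and 24 h, is shown with them. The letters ACGTG, a form of the core of the hypoxia response element, are marked in each. Other forms of that core were not searched. Each promoter is the 300 bases from 250 before to 50 after an annotated start, from RefSeq on build GRCm38.p6, 5′ to 3′ along the gene. All 10 genes were found there by symbol, with 16 windows in all, and of a gene with several windows the one with the most matches is printed. Capitals mark these letters on the strand printed, or on the opposite strand, where they appear reversed and complemented as CACGT. Where both forms overlap, the shared letters are a match on each strand. The windows are Slc2a1 (chr4:119108495-119108794, plus strand), Hk2 (chr6:82774405-82774704, minus strand), Pgk1 (chrX:106186850-106187149, plus strand), Pkm (chr9:59656977-59657276, plus strand), Ldha (chr7:46845554-46845853, plus strand) and Pfkfb3 (chr2:11502041-11502340, minus strand).
Slc2a1: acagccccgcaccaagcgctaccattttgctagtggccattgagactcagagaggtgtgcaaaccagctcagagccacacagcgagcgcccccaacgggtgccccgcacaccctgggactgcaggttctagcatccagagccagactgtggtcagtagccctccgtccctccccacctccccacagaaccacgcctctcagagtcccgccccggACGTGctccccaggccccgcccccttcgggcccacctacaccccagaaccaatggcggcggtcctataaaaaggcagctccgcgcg
Hk2: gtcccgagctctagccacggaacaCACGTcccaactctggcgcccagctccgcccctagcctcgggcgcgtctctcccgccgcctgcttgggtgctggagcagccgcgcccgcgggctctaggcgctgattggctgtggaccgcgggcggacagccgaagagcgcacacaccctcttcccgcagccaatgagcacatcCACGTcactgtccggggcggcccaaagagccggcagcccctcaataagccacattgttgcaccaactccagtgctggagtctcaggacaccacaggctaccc
Pgk1: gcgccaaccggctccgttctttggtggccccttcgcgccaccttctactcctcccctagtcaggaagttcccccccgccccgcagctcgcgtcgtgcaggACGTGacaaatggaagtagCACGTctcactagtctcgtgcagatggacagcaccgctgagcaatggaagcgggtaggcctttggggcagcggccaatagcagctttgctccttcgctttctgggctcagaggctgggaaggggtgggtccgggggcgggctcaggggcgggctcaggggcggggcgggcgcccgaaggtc
Pkm: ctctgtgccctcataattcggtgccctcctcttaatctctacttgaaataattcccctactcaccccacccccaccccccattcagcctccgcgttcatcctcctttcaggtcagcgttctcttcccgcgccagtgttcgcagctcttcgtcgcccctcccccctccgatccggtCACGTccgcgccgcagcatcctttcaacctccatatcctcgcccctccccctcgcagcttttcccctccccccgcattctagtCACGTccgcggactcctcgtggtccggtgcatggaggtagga
Ldha: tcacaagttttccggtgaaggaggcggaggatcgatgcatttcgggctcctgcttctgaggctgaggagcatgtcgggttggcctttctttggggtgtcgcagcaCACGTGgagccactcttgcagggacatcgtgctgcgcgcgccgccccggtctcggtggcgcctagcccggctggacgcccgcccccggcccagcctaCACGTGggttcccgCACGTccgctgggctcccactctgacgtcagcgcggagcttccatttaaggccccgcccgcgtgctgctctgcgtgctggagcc
Pfkfb3: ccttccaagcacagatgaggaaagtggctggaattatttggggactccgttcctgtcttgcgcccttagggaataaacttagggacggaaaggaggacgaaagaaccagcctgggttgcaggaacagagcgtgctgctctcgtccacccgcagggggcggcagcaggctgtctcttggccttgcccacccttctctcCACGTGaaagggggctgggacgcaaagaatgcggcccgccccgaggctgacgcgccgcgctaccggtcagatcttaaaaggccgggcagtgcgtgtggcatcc
Ldha had 5 matches in its window, Hk2, Pgk1, Pkm and Pfkfb3 had 2 and Slc2a1 had 1. Both matches of Pfkfb3 overlap as the palindrome of these letters, one on each strand, and Ldha holds 2 such overlapping pairs. Over all members, 10 of 16 windows and 8 of 10 genes held a match, with none for Pfkp or Pfkl. Of all 32851 promoter windows of this length 19.6% held one, and 8.21% held at least 2. Counted by gene, 21.8% of 27025 genes held a match in any window. These are matches of letters and say nothing of a factor bound there; base composition was not compared.

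Slc2a1 encodes GLUT1, the main glucose transporter of endothelium. At 48 h its level in the LCAs of atorvastatin mice 6 to 9 was 10.71, 9.36, 11.36 and 10.60, against 9.16, 9.42, 9.73 and 9.50 in their RCAs. LCAs of vehicle mice 1 to 5 read 10.32, 9.81, 10.85, 10.09 and 10.26 at that time, against 9.11, 8.59, 9.43, 9.53 and 8.72 in the RCAs. Every vehicle LCA was above every vehicle RCA, and 3 of 4 atorvastatin LCAs were, the exception being mouse 7. Every vehicle LCA was above every vehicle RCA at 48 h for 5.81% of all tested genes, Hk2 among them. LCA minus RCA was 1.05 ± 0.25 under atorvastatin (SE, n = 4, limma adjusted p = 0.00172) and 1.19 ± 0.23 in vehicle mice (SE, n = 5, limma adjusted p = 0.000113). At 12 h it was positive in 5 of 5 mice of each treatment without passing, at 0.49 (limma adjusted p = 0.382) and 0.79 (limma adjusted p = 0.0534). The vehicle value passed with the stricter filter (limma adjusted p = 0.0468), with the Gapdh end ratio as a covariate (0.81, limma adjusted p = 0.0297) and with the title code number as a block (1.02, limma adjusted p = 0.00852). At 24 h the mice split, with 2 of 5 positive in each treatment and means of -0.43 under atorvastatin and -0.24 in vehicle. The step from 24 h to 48 h passed in both treatments, at 1.48 under atorvastatin and 1.43 in vehicle (limma adjusted p = 0.00231 and 0.0017). At 2 weeks the differences of 0.43 and 0.37 did not pass on this probe set, whereas the second probe set of the gene gave 0.63 and 0.76 (limma adjusted p = 0.0313 and 0.00989).

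Of the hexokinases, which phosphorylate glucose on entry, Hk2, the inducible form, was higher in the LCA at 48 h and 2 weeks. At 2 weeks Hk2 read 6.67, 7.50, 7.20, 7.42 and 6.996 in the LCAs of atorvastatin mice 6 to 10, against 4.61, 5.09, 4.99, 5.05 and 4.75 in their RCAs. The LCAs of vehicle mice 1 to 5 read 7.35, 6.13, 7.08, 6.70 and 6.47, against 4.80, 4.91, 5.08, 4.54 and 4.95 in the RCAs. No LCA overlapped any RCA in either treatment. The RCA values lay near the array medians, which ran from 4.589 to 4.773, and Hk2 had only 1 probe set. Among all tested genes every LCA was above every RCA for 13.6% under atorvastatin and 11.1% in vehicle at this time. The mean difference was 2.26 ± 0.38 under atorvastatin (SE, n = 5, limma adjusted p = 1.36e-05) and 1.89 ± 0.38 in vehicle mice (SE, n = 5, limma adjusted p = 0.000207). At 48 h it was 1.61 under atorvastatin and 1.64 in vehicle (limma adjusted p = 0.00388 and 0.000943). Vehicle mice at 48 h ranged from 0.81 to 2.35, all above 0, while atorvastatin mice ranged from -0.93 in mouse 7 to 3.18 in mouse 8. Without mouse 6 the atorvastatin difference was 1.29 (limma adjusted p = 0.0598), without mouse 8 it was 1.08 (limma adjusted p = 0.0805), and without mouse 7 it was 2.45 (limma adjusted p = 1.72e-05).

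Hk1, the hexokinase most cells express, went the other way where it was called at all. In vehicle LCAs at 24 h it read 4.76, 6.51, 6.75, 6.91 and 6.25, against 8.11, 6.54, 7.82, 7.59 and 6.67 in the RCAs of the same mice. All 5 differences were negative, and that of mouse 1, -3.35, was far below the others at -0.03 to -1.07. The mean was -1.11 ± 0.37 (SE, n = 5, limma adjusted p = 0.0382). Without mouse 1 it was -0.55 (limma adjusted p = 0.359), without mouse 3 it was -1.12 (limma adjusted p = 0.0919) and without mouse 4 it was -1.22 (limma adjusted p = 0.0509). With the Gapdh end ratio, a measure of RNA integrity, as a covariate it was -0.74 (limma adjusted p = 0.446). A second probe set gave -0.29 there (limma adjusted p = 0.374). At 2 weeks that second set was lower in the LCA in both treatments, at -0.66 and -0.63 (limma adjusted p = 0.0121 and 0.0177), while the first gave -0.94 and -0.74 (limma adjusted p = 0.0522 and 0.136). The 2 probe sets of Hk1 disagree on which time passes.

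Phosphofructokinase carries out the committed step, and of its forms Pfkp and Pfkl are members. Pfkp, the platelet-type subunit, was higher in the LCA than in the RCA at 2 weeks. In the LCAs it read 8.54, 8.76, 8.66, 8.69 and 8.66 under atorvastatin, against 7.68, 7.93, 8.20, 7.91 and 7.23 in the RCAs. Vehicle LCAs read 8.92, 8.25, 8.97, 8.80 and 8.65, against 7.48, 7.41, 8.46, 7.79 and 7.61 in the RCAs. Atorvastatin arteries did not overlap, with every LCA above every RCA as for 13.6% of all tested genes. In vehicle mice the LCA of mouse 2 was below the RCA of mouse 3. The differences were 0.87 ± 0.14 and 0.97 ± 0.14 (SE, n = 5 each, limma adjusted p = 4.93e-06 and 9.23e-07), and a second probe set passed as well, at 0.76 and 1.06. At 48 h Pfkp passed in atorvastatin mice, without overlap of the arteries (as for 7.73% of all tested genes), at 0.67 ± 0.15 (SE, n = 4, limma adjusted p = 0.00115), against 0.26 in vehicle mice (limma adjusted p = 0.14). The difference between treatments, 0.41 (95% confidence interval -0.0073 to 0.83, limma adjusted p = 0.95), did not pass. Over the 4 times the LCA means of Pfkp were 9.01, 8.36, 8.57 and 8.66 under atorvastatin, with RCA means of 8.85, 8.28, 7.90 and 7.79. In vehicle mice the LCA means were 8.85, 8.23, 8.33 and 8.72, with RCA means of 8.82, 8.02, 8.07 and 7.75. The LCA mean was thus not higher at 2 weeks than at 12 h in either treatment, while the RCA mean was lower.

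Pfkl, the liver-type subunit, passed in none of the 8 groups with limma, and at an unadjusted p under 0.05 in 1 of them. That was vehicle at 48 h, where 5 of 5 mice were positive and the mean was 0.64 ± 0.31 (SE, limma adjusted p = 0.105). At 12 h its differences ran from -1.46 to 2.07 under atorvastatin and from -1.13 to 1.53 in vehicle mice, wider than at any later time. Of the other 2 probe sets of Pfkl, 1 was lower in the LCA at 2 weeks under atorvastatin (-0.80, limma adjusted p = 0.0456).

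Pfkfb3 makes the sugar bisphosphate that switches phosphofructokinase on, and it was the member called at 12 h and 24 h in both treatments. At 24 h Pfkfb3 read 9.46, 9.31, 9.38, 9.81 and 9.30 in atorvastatin LCAs, against 8.14, 8.82, 7.61, 7.75 and 8.27 in the RCAs. Vehicle LCAs read 8.97, 9.27, 9.22, 9.53 and 9.29, against 8.13, 8.21, 7.93, 8.27 and 8.42 in the RCAs. LCA and RCA did not overlap in either treatment, nor at 12 h. Every LCA was above every RCA at 24 h for 5.33% of all tested genes under atorvastatin and 6.44% in vehicle, and at 12 h for 1.03 and 1.73%. The 24 h difference was 1.34 ± 0.19 under atorvastatin (SE, n = 5, limma adjusted p = 9.67e-06) and 1.07 ± 0.19 in vehicle mice (SE, n = 5, limma adjusted p = 0.000217). At 12 h it was 0.91 ± 0.19 and 0.74 ± 0.19 (SE, n = 5 each, limma adjusted p = 0.00592 and 0.0286). All 10 mice were positive at 12 h. Without atorvastatin mouse 10 the difference was 0.79 (limma adjusted p = 0.0671). Without vehicle mouse 1, 3, 4 or 5 it was 0.66, 0.75, 0.74 or 0.73 (limma adjusted p = 0.13, 0.079, 0.0701 and 0.0825). With the title code number as a block, Pfkfb3 at 12 h was 0.85 and 0.75 and lost its call in both treatments (limma adjusted p = 0.0992 and 0.0719), as it did with the mean of both probe sets (limma adjusted p = 0.0854 and 0.093).

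At 48 h the Pfkfb3 difference did not pass. It was 0.05 under atorvastatin and -0.20 in vehicle, and the step from 24 h to 48 h was -1.28 ± 0.29 and -1.26 ± 0.27 (SE, limma adjusted p = 0.00193 and 0.00133). Both arteries moved: the RCA mean was 8.12 at 24 h, 8.80 at 48 h and 9.07 at 2 weeks under atorvastatin, against 8.19, 8.84 and 9.01 in vehicle mice, and Pfkfb3 was called in the test over the 4 times on RCA levels in both treatments (limma adjusted p = 0.00955 and 0.00826). LCA means were 9.45, 8.85 and 8.72 under atorvastatin, against 9.26, 8.64 and 9.01 in vehicle. A second probe set of Pfkfb3 gave 1.05 at 24 h under atorvastatin (limma adjusted p = 0.00992) and 0.70 in vehicle (limma adjusted p = 0.088), and did not pass at 12 h.

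**Figure D2:**
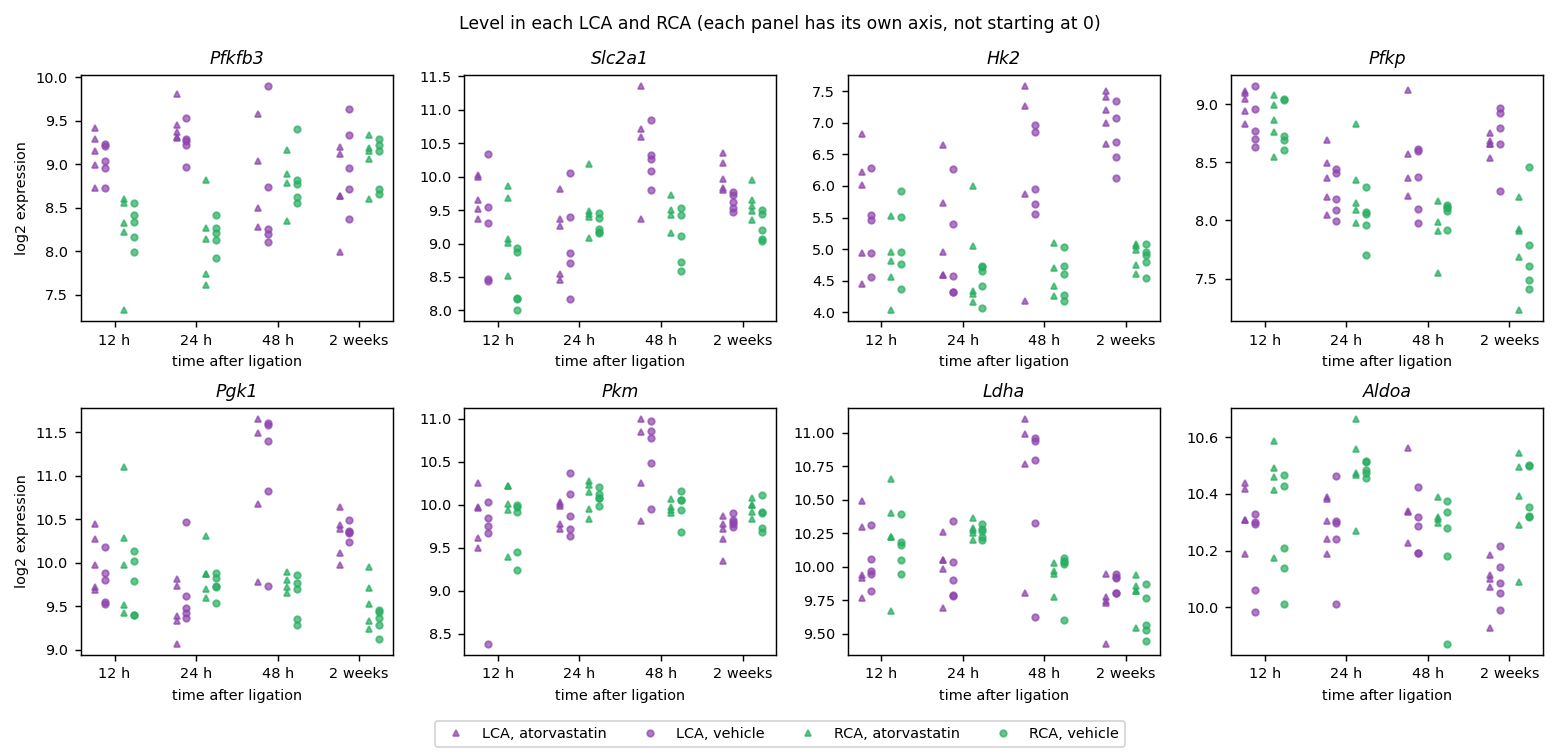
Log2 level (vertical axis, own scale in each panel) of 8 of the genes in each LCA (purple, left) and RCA (green, right) by time (horizontal axis), with triangles for atorvastatin and circles for vehicle. Pfkfb3 LCAs and RCAs do not overlap at 12 h and 24 h, and do from 48 h, while RCA levels of Pfkp are lower after 12 h.

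Aldoa, the aldolase that splits fructose bisphosphate, had the smallest spread of the 10. At 2 weeks Aldoa read 10.10, 10.12, 9.93, 10.07 and 10.18 in atorvastatin LCAs, against 10.29, 10.49, 10.09, 10.54 and 10.39 in the RCAs. Vehicle LCAs read 10.14, 10.21, 10.05, 9.99 and 10.09, against 10.50, 10.32, 10.32, 10.35 and 10.50 in the RCAs. It was lower in 5 of 5 mice of each treatment, with no overlap in vehicle (every LCA below every RCA for 9.19% of all genes). The differences were -0.28 ± 0.095 and -0.30 ± 0.095 (SE, n = 5 each, limma adjusted p = 0.0224 and 0.0155). Without atorvastatin mouse 7 or 9 the value was -0.26 or -0.24 (limma adjusted p = 0.0796 and 0.111), and without vehicle mouse 1, 4 or 5 it was -0.29, -0.29 or -0.28 (limma adjusted p = 0.054, 0.055 and 0.0634). All 4 Aldoa probe sets can bind related transcripts by their name suffix, and they differ. At 24 h another of them gave -1.10 under atorvastatin and -1.40 in vehicle (limma adjusted p = 0.0182 and 0.00285). A further set gave -0.38 and -0.42 (limma adjusted p = 0.0784 and 0.0453), and the remaining other set gave -0.316 and -0.318 without passing. The set used here gave -0.19 and -0.22 and did not pass. The mean of all sets passed at 24 h, at -0.50 under atorvastatin and -0.59 in vehicle (limma adjusted p = 0.032 and 0.00975). At 2 weeks under atorvastatin none of the other 3 sets passed with limma (adjusted p = 0.0847, 0.396 and 0.0724). In vehicle those sets gave -0.40, -0.46 and -0.38 (limma adjusted p = 0.0203, 0.302 and 0.0486). The mean of all sets at 2 weeks was -0.33 under atorvastatin and -0.38 in vehicle and did not pass (limma adjusted p = 0.117 and 0.0658). Atorvastatin mouse 9, which had the largest Aldoa difference of its group (-0.47), also stood apart in 6 skeletal muscle genes, at -4.30 on average against -0.28 to -0.07 in the other 4 mice; the part of muscle RNA in the Aldoa difference was not tested beyond the value without that mouse.

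Pgk1, phosphoglycerate kinase, makes the first ATP of the pathway's pay-off phase. At 48 h it read 11.49, 9.78, 10.68 and 11.65 in the LCAs of atorvastatin mice 6 to 9, against 9.72, 9.65, 9.89 and 9.81 in the RCAs. The LCAs of vehicle mice 1 to 5 read 11.40, 10.82, 11.59, 9.73 and 11.61, against 9.86, 9.35, 9.70, 9.77 and 9.28 in the RCAs. The LCAs of atorvastatin mouse 7 and vehicle mouse 4 lay among the RCAs, and all others above them. Differences were 1.13 ± 0.27 (SE, n = 4, limma adjusted p = 0.00171) and 1.44 ± 0.24 (SE, n = 5, limma adjusted p = 2.68e-05), and 1.47 ± 0.30 and 1.81 ± 0.24 without those mice. At 2 weeks Pgk1 was higher in the LCA in every mouse, by 0.44 to 1.11 under atorvastatin and 0.88 to 1.22 in vehicle. The arteries did not overlap, though under atorvastatin the lowest LCA read 9.973 and the highest RCA 9.95. Every LCA was above every RCA at that time for 13.6% of all tested genes under atorvastatin and 11.1% in vehicle. The mean Pgk1 differences were 0.76 ± 0.24 and 1.03 ± 0.24 (SE, n = 5 each, limma adjusted p = 0.016 and 0.00141). Without atorvastatin mouse 6, 7 or 10 the first was 0.67, 0.72 or 0.73 (limma adjusted p = 0.0701, 0.0554 and 0.0501). A second Pgk1 probe set passed at 48 h as well, at 1.08 and 0.72, and at 2 weeks in vehicle mice at 0.54, but gave 0.28 under atorvastatin (limma adjusted p = 0.31).

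Pkm, pyruvate kinase, and Ldha, the lactate dehydrogenase subunit that favours lactate, were higher in the LCA at 48 h and did not pass at 2 weeks. Ldha read 10.99, 9.80, 10.77 and 11.10 in atorvastatin LCAs at 48 h, against 10.03, 9.77, 9.95 and 9.97 in the RCAs. Vehicle LCAs read 10.79, 10.33, 10.96, 9.62 and 10.94, against 10.04, 10.07, 10.02, 10.04 and 9.61 in the RCAs. Again atorvastatin mouse 7 and vehicle mouse 4 stood apart, vehicle mouse 4 with a difference of -0.41. The mean differences were 0.73 ± 0.17 and 0.57 ± 0.16 (SE, n = 4 and 5, limma adjusted p = 0.0015 and 0.00391). Without vehicle mouse 5 the second was 0.39 (limma adjusted p = 0.0758), and without vehicle mouse 4 it was 0.82 (limma adjusted p = 3.87e-05). From 48 h to 2 weeks Ldha changed by -0.81 ± 0.23 under atorvastatin (SE, limma adjusted p = 0.0255), and by -0.33 in vehicle without passing (limma adjusted p = 0.412).

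Pkm differed by 0.92, -0.16, 0.32 and 0.94 in atorvastatin mice 6 to 9 at 48 h, against 0.83, 0.43, 0.81, -0.10 and 1.18 in vehicle mice 1 to 5. The same mice, 7 and 4, were the only ones at or below 0. Its means were 0.50 ± 0.19 and 0.63 ± 0.17 (SE, n = 4 and 5, limma adjusted p = 0.0374 and 0.00339). The atorvastatin call was lost without mouse 6, 8 or 9 (0.36, 0.57 and 0.36, limma adjusted p = 0.251, 0.0509 and 0.252), and without mouse 7 the value was 0.73 (limma adjusted p = 0.0056).

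Atorvastatin mouse 7 and vehicle mouse 4 at 48 h, picked out after their values of Pgk1, Pkm and Ldha were seen, also differed in markers. Over the tested neutrophil genes the mean LCA minus RCA was 1.67 in atorvastatin mouse 7, against 3.49 to 6.22 in mice 6, 8 and 9, and -0.11 in vehicle mouse 4, against 4.69 to 5.59 in the other 4 vehicle mice. Macrophage genes differed by 1.55 in atorvastatin mouse 7 and 0.55 in vehicle mouse 4, the lowest of each group. Proliferation genes were at -0.24 and -0.57 in these 2 mice; in atorvastatin mouse 8 they were lower still, at -0.87, with Ldha at 0.82 and Pgk1 at 0.79. Klf2 was lower in the LCA of both mice, at -2.35 and -2.89, within the range of their groups (-1.87 to -3.32 and -2.55 to -3.34). The part of these cells in the differences was not tested.

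**Figure D3:**
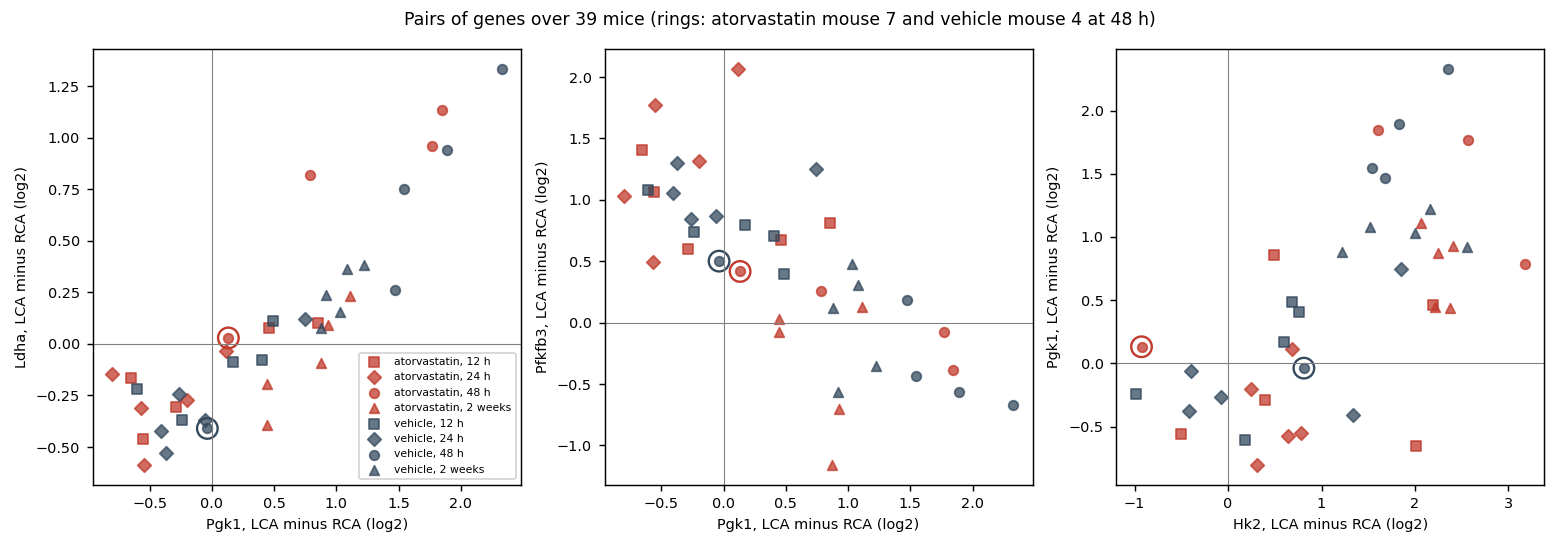
LCA minus RCA (log2) over 39 mice of Ldha against Pgk1, Pfkfb3 against Pgk1 and Pgk1 against Hk2 (vertical against horizontal axis), coloured by treatment and shaped by time, with rings on atorvastatin mouse 7 and vehicle mouse 4 at 48 h. Ldha rises with Pgk1 (r = 0.88), Pfkfb3 runs against Pgk1 (r = -0.74), Pgk1 and Hk2 have r = 0.64, and in the panels of Ldha and Pfkfb3 both ringed mice sit with the 12 h and 24 h mice rather than with the other 48 h mice.

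Across mice, LCA minus RCA of Pgk1 and Ldha had r = 0.88 over 39 mice and r = 0.86 after each group's mean was removed, and Pkm and Ldha had 0.81 and 0.73. Pfkfb3 and Pgk1 had -0.74, and -0.38 within groups. These are descriptions with no test, over mice that share the time groups, and the arrays share their normalization. Genes elsewhere on the array whose differences followed a member most closely were Cycs, Pdia6 and Ppa1 for Pgk1 (r = 0.95, 0.93 and 0.92), Txnrd1, Gpr35 and Rpn1 for Ldha (0.91, 0.90 and 0.90) and Il1rn, Emilin2 and Htr7 for Pkm (0.845, 0.83 and 0.82). Pfkfb3 was closest to Arhgef12, Jade2 and Trib3 (0.89, 0.87 and 0.87), and Pfkp to Vasn, Map3k5 and Nexn (0.87, 0.82 and 0.81). Slc2a1 was closest to Elavl1, Timm23 and Eif4a3 (0.83, 0.83 and 0.81), Hk2 to Fcer1g, Lgals3 and Apobr (each 0.78 to 0.79), Aldoa to Septin11, Fxyd5 and Rps25 (0.77, 0.76 and 0.76) and Hk1 to Lsg1, Gatad2a and U2af1 (0.72, 0.67 and 0.67). Fcer1g, next to Hk2, is expressed mainly in myeloid cells, and which cells the Hk2 RNA came from was not tested.

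Over the 4 times, 7 of 10 members differed in LCA minus RCA in each treatment, Slc2a1, Hk2, Pfkp, Pfkfb3, Pgk1, Pkm and Ldha, where 33.5% of all genes did under atorvastatin and 32.9% in vehicle. Between 12 h and 24 h 0 of 10 passed with limma in either treatment (Slc2a1 at an unadjusted p under 0.05 in each), and 0% of all genes did. Between 24 h and 48 h, 6 passed in each treatment, with 24.1 and 27.8% of all genes: Slc2a1, Pfkfb3, Pgk1, Pkm and Ldha in both, Pfkp under atorvastatin and Hk1 in vehicle. From 48 h to 2 weeks, LCA minus RCA fell for Pkm and Ldha under atorvastatin (8.32% of all genes) and rose for Pfkp in vehicle (5.76%). LCA levels alone differed over time for 7 members in each treatment (42.5% of all genes under atorvastatin, 49.5% in vehicle). RCA levels alone differed over time for 3 members under atorvastatin (Pfkp, Pfkfb3 and Ldha; 5.88% of all genes) and for 5 in vehicle, these 3 with Slc2a1 and Pfkl (26.8%). In vehicle RCAs, Slc2a1 was higher at 24 h than at 12 h by 0.85 ± 0.22 and Pfkp lower by 0.80 ± 0.18 (SE, limma adjusted p = 0.009 and 0.00332), a step in which 18.1% of genes passed; under atorvastatin 0.996% of genes and none of the members did (limma, with Pfkp at an unadjusted p under 0.05). The Gapdh end ratio (the 3 prime over the 5 prime control probe set) moved as well. Under atorvastatin LCAs averaged 4.875 and RCAs 4.205 (log2) at 12 h, 4.56 and 4.10 at 24 h, and 3.97 and 3.81 at 48 h. In vehicle LCAs averaged 4.82 and RCAs 4.74 at 12 h, 4.98 and 4.04 at 24 h, and 3.95 and 4.33 at 48 h. With it as a covariate, 23 of the 24 called differences between LCA and RCA passed again, and 4 members in place of 7 differed over time in vehicle.

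Atorvastatin against vehicle gave no call for any member. Of 40 tests on LCA minus RCA (10 genes, 4 times), 0 passed with limma and 0 had an unadjusted p under 0.05. The differences lay between -0.57 and 0.67, and the 95% confidence interval reached from 0.274 (narrowest) to 1.16 (widest) to either side of the estimate. On LCA levels 0 of 40 passed and 0 had p under 0.05. On RCA levels 0 of 40 passed and 2 had p under 0.05, Slc2a1 at 12 h, which was 0.79 higher under atorvastatin (limma adjusted p = 0.187), and Hk1 at 48 h, 1.10 higher (limma adjusted p = 0.33). Of all genes, 0.00882, 0, 0 and 0.0176% passed at the 4 times on LCA minus RCA, 0% on LCA levels, and 0.0441, 0, 0 and 0.00882% on RCA levels. Averaged over the 4 times, no member passed on any of these measures. In that average Slc2a1 and Hk1 had an unadjusted p under 0.05 on RCA levels (smallest limma adjusted p = 0.208), where 0.0176% of all genes passed. A p that misses the threshold does not show that the treatments act alike.

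**Figure D4:**
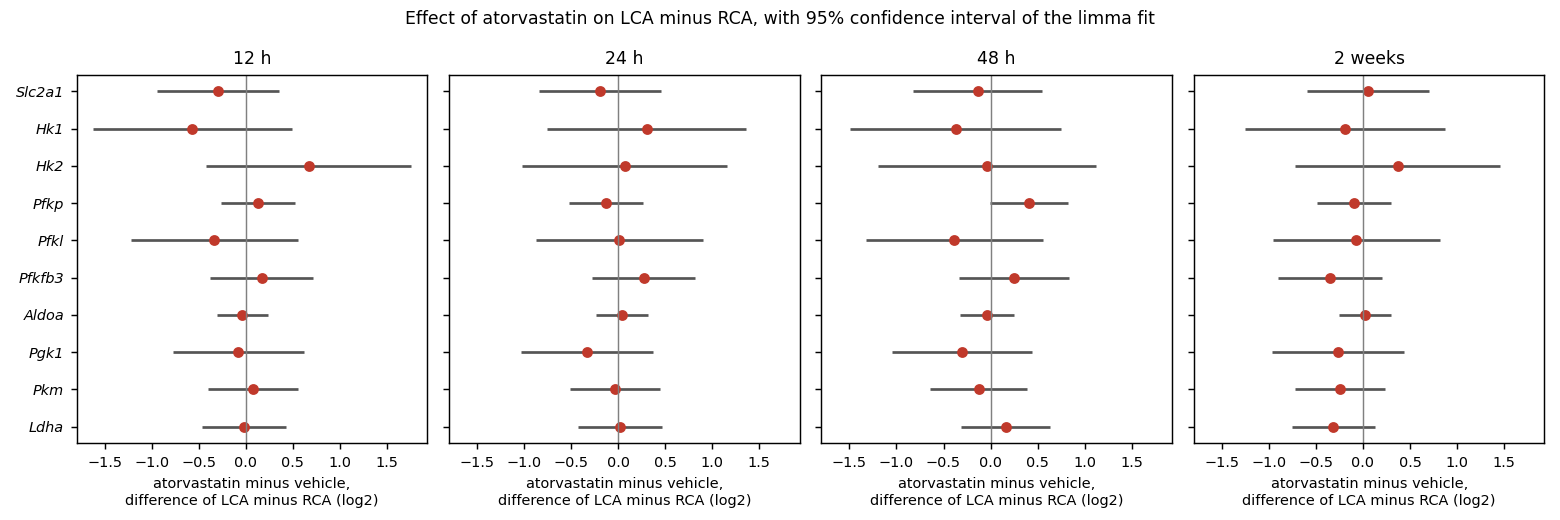
Atorvastatin minus vehicle in LCA minus RCA (log2, horizontal axis) for the 10 genes at each time, with points for the estimate and lines for the 95% confidence interval of the limma fit. All 40 intervals include 0, and that of Pfkp at 48 h starts at -0.0073.

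Other genes of the pathway were tested as well. Of 20 other glycolysis genes on the list 12 were tested. Under atorvastatin 1, 2, 7 and 4 passed at 12 h, 24 h, 48 h and 2 weeks, and in vehicle 2, 2, 9 and 7, at times when 1.68, 13.1, 31.8 and 29.9% of all tested genes passed under atorvastatin and 2.39, 14.3, 36.2 and 27.8% in vehicle. The atorvastatin count at 48 h was 2 without mouse 6 and 4 without mouse 9, and at 24 h it was 1 without mouse 8 or mouse 10. The vehicle count at 12 h was 1 without mouse 3. At 48 h, 6 were higher and 1 lower under atorvastatin and 8 and 1 in vehicle. The list's median difference at 48 h was 0.42 under atorvastatin and 0.41 in vehicle, beside -0.01 and 0.01 for all genes tested. The largest were the same 4 genes: Slc16a1, a carrier of lactate and pyruvate (2.85 and 2.53), Slc2a3, another glucose transporter (1.28 and 1.55), Slc16a3, a lactate exporter (1.18 and 1.20) and Pfkfb4, a relative of Pfkfb3 (0.96 and 1.57). Bpgm, which makes bisphosphoglycerate, was higher in the LCA in all 8 groups, by 0.28 to 0.67. Ldhb, the other lactate dehydrogenase subunit, was higher in the LCA at 24 h, by 0.76 and 1.64, when Ldha was not called.

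Genes of neighbouring pathways were tested too. Of 5 pentose phosphate genes tested, 3 were higher at 48 h under each treatment and 0 lower: Pgd, Tkt and Rpia under atorvastatin (1.15, 0.97 and 0.35), and Taldo1, Pgd and Tkt in vehicle (0.81, 0.80 and 0.71). At 2 weeks 2 and 4 of 5 were higher. Of all tested genes, 31.8% passed at 48 h and 29.9% at 2 weeks under atorvastatin, against 36.2 and 27.8% in vehicle. Among 11 hexosamine and glycogen genes, 2 were higher at 48 h in both treatments, Pygl, a glycogen phosphorylase (2.58 and 2.70), and Gfpt1, which starts the hexosamine route (0.71 and 0.75). Of 8 genes for pyruvate entry into mitochondria, Pdk4, a kinase that restrains pyruvate dehydrogenase, was higher already at 12 h (1.35 and 1.67) and 24 h (1.75 and 2.36), as Pfkfb3 was. Pdk2 was lower and Pdk3 higher at 48 h (-1.16 and 1.06 under atorvastatin, -1.36 and 0.99 in vehicle).

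Regulators of the pathway moved in both directions. Klf2 was lower in the LCA in every mouse, by means of -3.04, -2.79, -2.59 and -1.86 over the 4 times under atorvastatin, against -2.39, -3.01, -2.96 and -1.34 in vehicle. Myc, which drives glycolytic genes in growing cells, was higher at 48 h (2.55 and 1.87), and Hif1a, the hypoxia factor, by 1.11 and 0.66. Txnip, which restrains glucose uptake, was lower at 48 h (-1.98 and -1.25), and Epas1 likewise (-0.81 and -0.87). Of 10 regulators tested, 3 were higher and 4 lower at 48 h under atorvastatin, and 2 and 4 in vehicle. At that time 31.8% of all tested genes passed under atorvastatin and 36.2% in vehicle. Of 12 hypoxia targets outside glycolysis, 4 were higher and 5 lower at 48 h under atorvastatin, against 2 and 4 in vehicle. Egln3 (1.56 and 1.65) and Car9 (1.297 and 1.24) were higher; Ndrg1 (-0.79 and -1.07) and Ddit4 (-0.69 and -1.10) lower. The list moved in both directions.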

How the data were processed

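The authors deposited 1 normalized log2 value per probe set and array, made by RMA per the submitters' processing notes; its software version and probe set definition: not given in the sources used here. The 78 arrays held 45118 probe sets with values from 1.79 to 13.235 and array medians of 4.589 to 4.773. The platform annotation gave 1 gene symbol to 28898 probe sets, several to 551 and none to 15588. The probe set with the highest mean stood for each of 17097 genes, and 11344 above the array median on at least 4 arrays were tested. Arteries were paired by the mouse number in the labels. LCA minus RCA per mouse, LCA levels and RCA levels were each fitted over all 8 mouse groups with limma 3.58.1 in R 4.3.3, with p-values adjusted over all genes tested, after tests on simulated data. Deviations of a mouse's 2 arteries from their group means correlated with a median of 0.088 (-0.34 to 0.513). No arrays were identical. The labels mention 4 batches without assigning arrays to them, so batch was not tested. The members, gene lists and tests were chosen with earlier results of these data known. The text names all 10 members, up to 4 called genes per list with the largest change, Klf2 and the 3 genes most correlated with each member called in vehicle mice; other genes named were chosen after their values were seen. The alternatives were no filter or a stricter one, repeated quantile normalization, the mean of all probe sets, fits on the mice compared alone, robust variances, the title code number as a block, the Gapdh end ratio, arteries unpaired, and leaving out each mouse.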

Additional observations from a re-analysis of the deposited data

Results flagged for a closer look

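In 2 of 80 groups of LCA minus RCA values, 1 mouse lay far from the others, where chance alone gives about 1 in 20 groups. For Hk1 under atorvastatin at 2 weeks, mouse 7 was at -2.351 and the other 4 mice at -0.73 to -0.416. For Aldoa in vehicle mice at 48 h, mouse 5 was at 0.553 and the others at -0.145 to 0.037.

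The difference between the arteries itself differed between successive times for several members, by limma's test of that difference. Under atorvastatin, 48 h minus 24 h was 1.48 for Slc2a1, 0.59 for Pfkp, -1.28 for Pfkfb3, 1.53 for Pgk1, 0.69 for Pkm and 1.004 for Ldha. In vehicle mice it was 1.43 for Slc2a1, 1.40 for Hk1, -1.26 for Pfkfb3, 1.51 for Pgk1, 0.78 for Pkm and 0.86 for Ldha. From 48 h to 2 weeks it was -0.81 for Pkm and -0.81 for Ldha under atorvastatin, and 0.71 for Pfkp in vehicle mice.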

How the results depend on the processing

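All 24 called differences between LCA and RCA passed again after repeated quantile normalization, with robust variances and with the stricter filter. Of these 24, 13 lost their call when only the mice compared were fitted, 4 with the mean of all probe sets, 4 with the title code number as a block, 2 with no replicate block, 1 with the Gapdh end ratio and 1 with no filter; leaving out 1 mouse ended the call in 22 cases and kept it in 92. No called value changed sign. With no replicate block, which ignores that both arteries came from 1 mouse, Pkm under atorvastatin at 48 h had a limma adjusted p of 0.0662, Pfkfb3 at 12 h in vehicle had 0.11, so that 0 members passed there in place of 1, and member calls between successive times under atorvastatin were 5 in place of 8. The title code block left 1 call at 12 h in vehicle but exchanged Pfkfb3 for Slc2a1. Fits on the mice compared gave 0 at 12 h, 2 at 24 h and 0 at 48 h under atorvastatin, 3 between successive times and 1 on RCA levels over time; in vehicle mice they gave 0, 1 and 3. The mean of all probe sets gave 0 at 12 h in both treatments and 2 at 24 h under atorvastatin. With the title code block, counts were 0 at 12 h, 4 between successive times and 4 on LCA levels under atorvastatin, and 1 at 24 h, 3 over the 4 times and 3 on LCA levels in vehicle. With the Gapdh ratio, vehicle counts were 2 at 12 h, 1 at 24 h, 4 over the 4 times, 3 between successive times, 4 on LCA levels and 1 on RCA levels. The stricter filter gave 2 at 12 h in vehicle, and no filter gave 1 at 24 h. Without 1 mouse, counts were 0 to 1 at 12 h and 2 to 4 at 2 weeks (2 without mouse 7) under atorvastatin, with 4 to 10 between successive times (4 without 48 h mouse 9, 5 without mouse 6) and 4 to 9 on LCA levels (4 without 48 h mouse 9). In vehicle they were 0 to 1 at 12 h, 1 to 2 at 24 h, 4 to 8 between successive times (4 without 48 h mouse 5) and 3 to 5 on RCA levels (3 without 12 h mouse 3). Atorvastatin against vehicle on RCA levels gave 0 to 1 (1 without atorvastatin 12 h mouse 9). For the other glycolysis genes at 48 h, counts of 7 under atorvastatin and 9 in vehicle were 4 and 5 with the stricter filter, 0 and 4 on the mice compared, and 3 and 5 with the title code block. At 2 weeks the stricter filter gave 2 and 3 in place of 4 and 7. At 12 h, fits on the mice compared gave 0 and 0 in place of 1 and 2. With the Gapdh ratio, atorvastatin counts were 0 at 12 h and 1 at 24 h. Beyond the use of fewer mice, the cause of these changes was not tested.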
